A study of Mus musculus with 4 samples.

Results

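InjuredPT-B is cluster 12 of the 23 clusters of kidney nuclei that the study's authors defined, an injured proximal tubule cluster of mice given aristolochic acid I (AAI). Its members here are 2 of the 92 columns of cluster averages, 1 from the control mouse with AAI and 1 from the hKLF6OE mouse with AAI, and they were chosen by cluster number. The columns of the same cluster in the 2 mice without AAI are given for context only, since the study describes the cluster as almost absent there. Single-nucleus RNA sequencing was done on kidney cortex of 4 male mice of mixed strain, 1 mouse for each condition. The control mice carried TRE-hKLF6 alone, and the hKLF6OE mice carried CAG-rtTA,TRE-hKLF6, in which a promoter active in nearly all cells drives the doxycycline-dependent activator of the human KLF6 transgene. Both genotypes received the doxycycline diet according to the study's methods. The AAI mice were studied the day after a single injection, and ages are not given in the sources used here. Cluster names follow the order of the study's list of clusters, and the place of InjuredPT-B in that order is less sure than that of the normal proximal tubule clusters.

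AAI is a plant toxin that proximal tubule cells take up through organic anion transporters and convert into a form that binds DNA, and the proximal tubule is its main target. The proximal tubule runs from the S1 and S2 segments, which reabsorb most of the filtered glucose, amino acids and protein, to the straight S3 segment, which carries other transporters and steroid and xenobiotic enzymes. Injured tubule cells are known to lose transport genes and to gain genes of DNA damage, cytokine and cytoskeleton responses. KLF6 is a zinc finger transcription factor that is induced early after injury.

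Values below are normalised expression averaged over all nuclei that a mouse contributed to a cluster, in counts per 10000 counts of a nucleus. Differences are on the log2(value + 1) scale, which understates the change of low genes. A gene entered a comparison when the larger of the values compared was at least 0.5, and a difference of at least 0.5 was counted, in the same direction in both AAI mice where both were compared. Each condition has 1 mouse, so no spread between mice could be measured, no test was made, and every difference describes these mice. The nuclei and counts behind a column are not in the table. The InjuredPT-B columns of the AAI mice, control first, listed 27.0% and 29.7% of genes at 0, and the normal proximal tubule columns beside them up to 31.3% and 30.4%. The InjuredPT-B columns without AAI listed 51.3% and 55.7% at 0. Where a pair of values is given, the control mouse comes first and the hKLF6OE mouse second, both with AAI unless stated.

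The 4 marker genes given for the cluster were high in it in both AAI mice. Il34, a cytokine that acts on macrophages, lies on chromosome 8 at 110741829 to 110805924 on the minus strand (GRCm38, GENCODE) and was 7.29 and 7.93. Cxcl1, a neutrophil-attracting chemokine on chromosome 5 at 90891241 to 90893115, was 3.75 and 5.35. Plin2, which coats lipid droplets, lies on chromosome 4 at 86648386 to 86670060 and was 3.97 and 2.52. Abcb1b, an efflux pump for drugs and other compounds on chromosome 5 at 8798147 to 8866315, was 3.87 and 2.88. InjuredPT-B ranked 1 of 23 clusters for Il34, Plin2 and Abcb1b in both mice, and for Cxcl1 its ranks were 2 and 1. In the hKLF6OE mouse, the rank for Abcb1b rested on a small margin, since PT-S3-3 had 2.84. Because the clusters were made from the same nuclei, these levels describe the cluster and are no test of it.

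Markers of other cell types were compared with normal proximal tubule of all segments and with PT-S3. Summed values of 8 lists of other kidney and immune cells lay, for 7 lists in both mice, inside the range that the 5 normal clusters (PT) of each mouse spanned. The exception was the fibroblast and mesangial list, at 0.0958 in the control mouse against a highest normal sum of 0.0956, with 4 of its 7 genes at 0. Ptprc, the pan-leukocyte marker, was 0.0535 and 0.0137, and Nphs1, a slit diaphragm gene of podocytes, was 0 and 0.0817. Against PT-S3 alone, several of these lists had higher sums in both mice. The podocyte genes summed to 0.488 and 0.540, against at most 0.433 and 0.488 in a PT-S3 cluster. The intercalated cell genes summed to 0.313 and 0.411, against at most 0.305 and 0.289. No gene of these lists reached the minimum value for a comparison with PT-S3 in both mice. The thick ascending limb genes summed to 8.04 and 8.35, against at most 5.96 and 5.88 in a PT-S3 cluster, and the 3 of 4 compared had medians of 0.40 and 0.41. The connecting tubule and principal cell genes summed to 2.32 and 3.46, against at most 1.57 and 2.43, and the 2 of 5 compared had medians of 0.36 and 0.38. The part of markers of other cell types in the differences from PT-S3 was not tested. S and G2/M phase genes summed to 1.33 and 1.38, against highest normal sums of 1.96 and 1.29, and none of the 27 could be compared with PT-S3 at the minimum value.

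Which normal proximal tubule cluster InjuredPT-B resembled was read across genes within each mouse. PT-S3-1 came first in both mice, with Pearson's r of 0.924 over 4525 genes and 0.894 over 4454 genes. PT-S3-3, at 0.8956 and 0.8516, was second in the control mouse, and PT-S1-S2-2, at 0.8739 and 0.8521, was second by a small margin in the hKLF6OE mouse. PT-S1-S2-1 followed at 0.832 and 0.812. PT-S3-2 came last of the normal clusters, at 0.790 and 0.774, although it carries the same segment name as the first. The mean absolute log2 difference gave PT-S3-1 as the nearest too, at 0.238 and 0.261, against 0.349 and 0.369 for PT-S3-2. A second injured cluster, InjuredPT-A, was further away than any normal proximal tubule cluster, with r of 0.703 and 0.663. These correlations are across genes of columns that share a mouse and its library, and genes are not replicates.

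**Figure D1:**
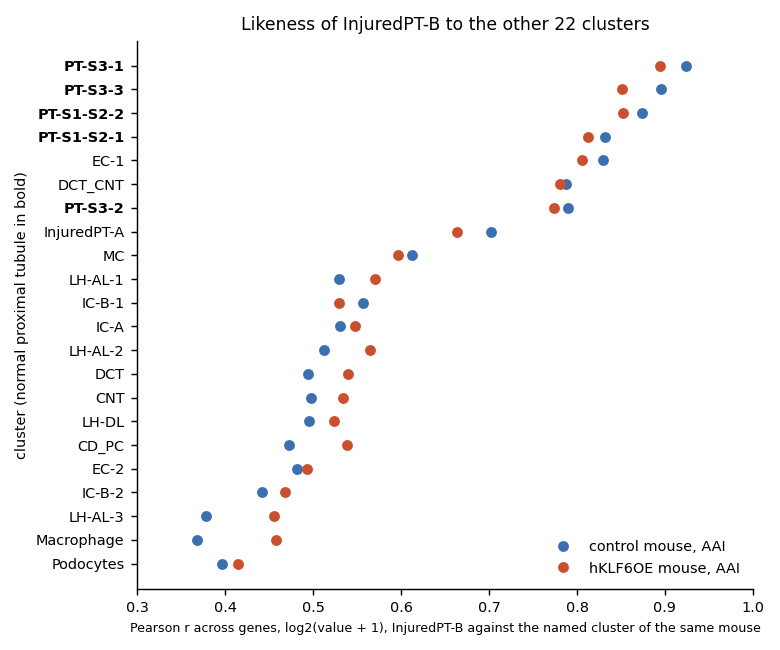
Pearson correlation across genes of log2(value + 1) between InjuredPT-B and 22 further clusters, compared within an AAI mouse (x axis), 1 point for each mouse and cluster. PT-S3-1 is at the top in both mice, at 0.924 and 0.894, and InjuredPT-A is below all 5 normal proximal tubule clusters, at 0.703 and 0.663.

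A cluster named for endothelium, EC-1, was above PT-S3-2 in both mice, at 0.830 and 0.806, and DCT_CNT in the hKLF6OE mouse, at 0.788 and 0.781. Among genes whose level differed by at least 1 on the log2 scale between normal proximal tubule clusters, the level in InjuredPT-B was nearest to PT-S3-1 for 41.4% of 457 genes and for 39.2% of 477 genes. The other 4 clusters were nearest for 10.9% to 18.4% of these genes. Between the 2 AAI mice, InjuredPT-B correlated at 0.937, less than the 0.961 to 0.976 of the normal proximal tubule clusters and more than the 0.923 of InjuredPT-A.

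The S3 segment genes show how far the PT-S3 clusters differ among themselves. Of 7 S3 segment genes compared with the mean of the 3 PT-S3 clusters, 6 were lower in both mice and none higher. Over all genes, 4.83% were lower and 2.56% higher. The medians of the 7 were -1.47 and -1.05, beside 0.12 over all genes. Cyp7b1, an oxysterol hydroxylase, was 0.810 and 0.980 in InjuredPT-B. It was 0.358 and 0.435 in PT-S3-1 but 47.4 and 48.3 in PT-S3-2, so that the low value in InjuredPT-B is shared with its nearest normal cluster. Slc7a13, an S3 transporter of acidic amino acids, was 6.61 and 2.64 in InjuredPT-B against means of 20.1 and 14.6 in PT-S3, and 9.92 and 2.38 in PT-S3-1. Slc5a8, a monocarboxylate transporter, was 1.08 and 1.17 against 4.20 and 3.45. Slc5a12, a lactate transporter of the early segments, was 6.30 and 6.31 in InjuredPT-B, between the 1.80 to 24.4 of the PT-S3 clusters and far under the 44.5 to 69.0 of the PT-S1-S2 clusters. Slc2a2, a basolateral glucose transporter, was the 1 of 12 early segment genes higher than PT-S3 in both mice, at 2.20 and 2.59 against 0.907 and 1.34. That count stands beside 2.56% of all genes.

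Against the mean of PT-S3 of the same mouse, 4141 genes were compared, of which 106 were higher (2.56%) and 200 lower (4.83%) in InjuredPT-B of both mice. The median difference over all genes was 0.12 in both mice, and centring on this median left 45 higher and 310 lower genes, so that the higher genes made up 34.6% of the calls before centring and 12.7% after. Ordered by the smaller difference of the 2 mice, the genes furthest above PT-S3 included Plin2, Chka, Sptlc2, Myo10 and Ypel2. Plin2 was 3.97 and 2.52 against PT-S3 means of 0.692 and 0.514, a difference of 1.55 and 1.22. Chka, choline kinase, which starts phosphatidylcholine synthesis, was 4.95 and 5.18 against 1.64 and 1.74. Sptlc2, a subunit of the first enzyme of sphingolipid synthesis, was 6.86 and 5.29 against 2.59 and 2.22. Myo10, an unconventional myosin of filopodia, was 3.50 and 3.82 against 1.21 and 1.47, and Ypel2 was 4.05 and 3.94 against 1.48 and 1.20. All of these were higher by 0.96 or more in both mice. Of the 106 higher genes, 94 were above each of the 5 normal clusters in both mice and 63 were higher than PT-S3-1 alone by the threshold.

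The lower genes were of a mixed kind. Of the 200, 186 were lower than PT-S3-2, 153 lower than PT-S3-3 and 81 lower than PT-S3-1 by the threshold in both mice, and 84 were at or above the lowest normal cluster in both mice. Several of the genes furthest below PT-S3 were high in PT-S3-2 and low in PT-S3-1. Rnf24, a ring finger protein, was 1.26 and 1.07 in InjuredPT-B, 46.2 and 29.8 in PT-S3-2 and 2.06 and 1.02 in PT-S3-1. Gramd1b, a sterol transfer protein, was 8.25 and 15.7 in InjuredPT-B against 110 and 125 in PT-S3-2 and 7.28 and 10.1 in PT-S3-1. Fgf1, a growth factor, was 2.72 and 2.64 against 22.3 and 33.8 in PT-S3-2 and 2.34 and 3.19 in PT-S3-1. Ghr, the growth hormone receptor, was low against each of the 3 clusters, at 46.8 and 33.8 in InjuredPT-B, 108 and 78.5 in PT-S3-1, 240 and 199 in PT-S3-2 and 171 and 124 in PT-S3-3. Ghr, Mep1b, Ctnna2, Cmah, Gpm6a and Sugct were all lower than the PT-S3 mean by at least 1.58 in both mice. With PT-S3-1 as the reference, 91 genes were higher and 160 lower.

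The genes that lay outside the range of all 5 normal clusters of the same mouse show what set InjuredPT-B apart from normal proximal tubule of any segment. Of 4620 genes compared, 29 were above the range by the threshold in both mice (0.628%) and 13 below it (0.281%). Plin2 was above by 1.30 and 0.93. Mouse Klf6, which is both a member of the set and the mouse form of the transgene, was 2.00 and 1.75 in InjuredPT-B, against 0.260 to 0.535 in the normal clusters of the control mouse and 0.195 to 0.468 in those of the hKLF6OE mouse. The row is the mouse gene, so it does not check the human transgene, which was not analysed here. Without AAI, Klf6 was 0.404 and 0.153 in InjuredPT-B.

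NF-kB genes were among those above the range. NF-kB is a family of transcription factors held in the cytoplasm by IkB proteins, and it drives cytokine genes such as Cxcl1. Nfkb1, which encodes its p50 subunit, was 2.29 and 3.17 in InjuredPT-B, against highest normal values of 0.981 and 1.12 and against 1.13 and 1.12 in InjuredPT-A. Nfkbiz, an atypical nuclear IkB, was 1.71 and 1.93 against highest normal values of 0.831 and 0.969, and 2.69 and 1.43 in InjuredPT-A. Nfkbia, the classical inhibitor and itself a target of the pathway, was 0.931 and 1.46 against PT-S3 means of 0.213 and 0.419, but in the range of the normal clusters in the hKLF6OE mouse, and was 2.80 and 1.64 in InjuredPT-A. The sum over the NF-kB list was 13.4 and 16.3 in InjuredPT-B and 16.7 and 12.8 in InjuredPT-A, so the order of the 2 injured clusters differed between the mice. Of the 7 NF-kB pathway genes compared with PT-S3, Nfkb1, Nfkbiz and Nfkbia were higher and no gene was lower. Over all genes, 2.56% were higher and 4.83% lower. The median of the 7 was 0.46 in both mice, beside 0.12 over all genes. Birc3, an inhibitor of cell death downstream of the pathway, was 0.441 and 0.879 in InjuredPT-B against 0.188 and 0.198 in PT-S3. It was under the minimum value of 0.5 in the control mouse and was not compared. Icam1, an adhesion molecule, was 0.628 and 0.589 against 0.185 and 0.153, which missed the threshold. In PT-S3, Nfkb1 was 0.735 and 0.842 with AAI and 0.664 and 0.610 without it.

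Promoters were read for the genes above the range because NF-kB genes stood among them. The windows come from RefSeq on GRCm38.p6 and run from 250 bases before a gene's start to 50 after it, and 22 of the 29 genes above the range and all 13 below it matched an entry. Both strands were searched. The AP-1 letters TGANTCA were in 4 of the 22 promoters (18.2%), against 4.19% of the 3629 promoters of all genes compared. The NF-kB letters GGGANNTTC were in 2 of the 22 (9.09%), those of Tpm3 and Vmp1, against 3.39%. The CACCC box, a motif that KLF factors bind, was in 18 of the 22 (81.8%) and in 3 of the 13 below the range (23.1%), against 62.1%. The GC box GGGCGG was in 16 of the 22 (72.7%) and 7 of the 13 (53.8%), against 67.8%, and the CRE letters TGACGTCA were in none of either, against 3.20%. In the 79 promoters of the genes higher than PT-S3, the CACCC box was in 64 (81.0%), against 62.0% of the 3269 promoters of the genes compared. The AP-1 letters were in 5 of the 79 (6.33%), against 4.04% of the 3269. They were also in 11 of the 160 promoters of the genes lower than PT-S3 (6.88%). Over all 27025 promoters listed, the AP-1 share was 7.93%. These matches are counts of letters on small sets, the CACCC box is part of many GC-rich promoters, and no test was made.

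The 250 bases before the start are shown for the chemokine marker Cxcl1, for Nfkbia and for Zfp36l1, an RNA-binding protein that promotes decay of cytokine mRNAs and stood above the range at 2.81 and 2.72. Cxcl1 and Nfkbia were higher than PT-S3 but not above the range by the threshold in both mice, and are not among the 22. Cxcl1 was above the range by 0.39 and 0.80. Capitals mark NF-kB letters in Cxcl1 (chr5:90890995-90891244, plus strand) and Nfkbia (chr12:55492648-55492897, minus strand), and AP-1 letters in Zfp36l1 (chr12:80113014-80113263, minus strand).
Cxcl1: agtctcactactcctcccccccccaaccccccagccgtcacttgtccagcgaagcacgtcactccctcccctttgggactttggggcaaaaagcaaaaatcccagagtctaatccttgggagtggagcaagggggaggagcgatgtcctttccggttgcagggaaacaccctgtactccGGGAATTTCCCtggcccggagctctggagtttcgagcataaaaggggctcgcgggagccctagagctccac
Nfkbia: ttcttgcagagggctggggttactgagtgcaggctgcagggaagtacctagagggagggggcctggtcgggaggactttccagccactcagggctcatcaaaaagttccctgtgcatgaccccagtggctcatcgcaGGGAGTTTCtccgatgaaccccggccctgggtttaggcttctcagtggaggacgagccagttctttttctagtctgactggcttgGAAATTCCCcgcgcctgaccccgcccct
Zfp36l1: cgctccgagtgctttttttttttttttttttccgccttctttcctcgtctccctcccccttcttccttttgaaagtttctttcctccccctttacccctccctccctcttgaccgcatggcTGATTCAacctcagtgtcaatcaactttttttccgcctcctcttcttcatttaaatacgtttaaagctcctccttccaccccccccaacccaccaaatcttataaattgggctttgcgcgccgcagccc
In Cxcl1, the 2 matches overlap and begin 71 and 69 bases before the start. In Nfkbia they begin 113 and 28 bases before it, and in Zfp36l1 the match begins 129 bases before it. The same 250 bases of Plin2, Abcb1b, Klf6 and Polr2a held neither AP-1 nor NF-kB letters, and Il34 matched no promoter entry.

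Of the lists, the actin and adhesion list had 2 of 18 genes compared above the range (Myh9 and Cdh1) and the autophagy list 1 of 9 (Vmp1). Over all genes the share was 0.628%, and most of the 29 genes were in no list. Cd2ap, an adaptor between membrane and actin, was 4.15 and 4.82 against highest normal values of 1.90 and 2.18. Myh9, the heavy chain of non-muscle myosin, was 3.43 and 4.56 against 1.85 and 1.87, and Cdh1, E-cadherin, was 2.27 and 2.65 against 1.00 and 0.975. Tpm3 and Raph1, which act on actin filaments, were above the range as well, by 0.54 or more in both mice. Vmp1, which is needed to form autophagosomes, was 6.97 and 8.16 against 4.31 and 3.99. Eif2ak3, the PERK kinase of the unfolded protein response, was 1.88 and 1.80 against 0.828 and 0.911. Polr2a, the largest subunit of RNA polymerase II, was 4.70 and 4.14 against 2.10 and 2.01, and it reached 24.3 and 23.3 in InjuredPT-A. Of the 29 genes, 6 were higher in InjuredPT-B than in InjuredPT-A in both mice and 5 were lower. Over all 4977 genes compared between the 2 injured clusters, 525 were higher and 538 lower. Cd2ap, Il34 and Nfkb1 were among the 6, with InjuredPT-A values of 1.69 and 1.71, 1.85 and 1.11, and 1.13 and 1.12. Klf6, Zfp36l1, Polr2a and Vmp1 were among the 5, and Vmp1 was 15.9 and 19.5 in InjuredPT-A.

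**Figure D2:**
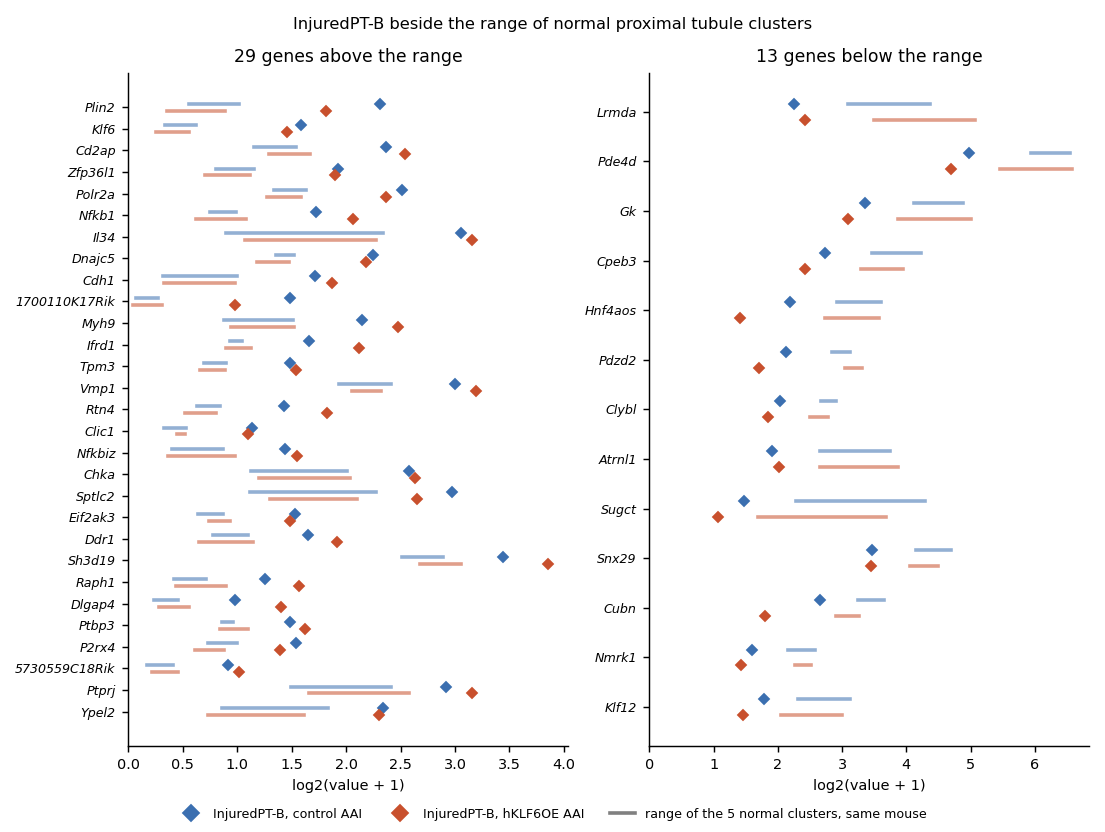
Genes outside the range of the 5 normal proximal tubule clusters in both AAI mice, on a log2(value + 1) axis. Diamonds are InjuredPT-B and bars the lowest to highest normal cluster of the same mouse, with 29 genes above the range (left) and 13 below it (right). Plin2 has the widest gap above, at 1.30 and 0.93, and Lrmda the widest below, at -0.84 and -1.08, when genes are ordered by the smaller gap of the 2 mice.

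Of the 13 genes below the range, Cubn was the 1 member of the shared proximal tubule list. Cubn, the cubilin receptor for filtered proteins and vitamin B12, was 5.32 and 2.48 in InjuredPT-B, against 8.49 to 11.5 and 6.50 to 8.63 in the normal clusters. Its partner Lrp2, megalin, was 10.3 and 9.33 against 14.6 to 22.1 and 15.9 to 21.4, and missed the set because it was below the range by 0.48 in the control mouse. Gk, glycerol kinase, was 9.29 and 7.56 against lowest normal values of 16.4 and 13.6. Pde4d, a cyclic AMP phosphodiesterase, was 30.5 and 24.9 against 60.6 and 43.0. Hnf4aos, the antisense transcript of Hnf4a, was 3.57 and 1.65 against 6.59 and 5.67, and reads of overlapping antisense genes may be shared. Hnf4a itself, the main transcription factor of proximal tubule identity, was 1.69 and 1.26, below the lowest normal cluster by 0.30 and 0.42. Of the 13 genes, 7 were higher in InjuredPT-B than in InjuredPT-A in both mice and none was lower. Beside them stand 525 higher and 538 lower of all 4977 genes compared between these clusters.

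Long genes were frequent among the lower ones. Of the 13 genes below the range, 10 span more than 100 kb, and 54.3% of the genes lower than PT-S3 do, against 25.8% and 25.6% of all genes compared with the range and with PT-S3. Of the 29 above the range, 28 have a span in the annotation and 4 of these (14.3%) exceed 100 kb. The part of gene length in these differences was not tested.

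Genes shared by all proximal tubule segments were lower in part. Of 27 compared with PT-S3, 8 were lower and none higher, beside 4.83% and 2.56% of all genes. By any amount, 17 were lower in both mice, and the same share of all genes was not counted. The medians were -0.11 in the control mouse and -0.50 in the hKLF6OE mouse, beside 0.12 over all genes. Acsm1, an acyl-CoA synthetase, was 3.39 and 2.28 against 7.53 and 6.02, Keg1 was 42.9 and 27.7 against 74.2 and 54.0, and Slc3a1, a cystine transporter subunit, was 2.10 and 1.76 against 4.39 and 4.65. Dab2, the endocytic adaptor of megalin, was 32.1 and 21.4 against 28.4 and 21.8, and Slc34a1, the phosphate transporter, was 15.1 and 9.30 against 15.9 and 14.4. Among the proximal tubule transcription factors, Nr3c1, the glucocorticoid receptor, was higher, at 3.44 and 3.31 against 2.02 and 1.94.

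Genes of DNA damage, signals and stress were compared by list. Over all genes, 2.56% were higher and 4.83% lower, with a median of 0.12. Among 16 p53 targets, the higher ones numbered 3 and no gene was lower, 14 were higher by any amount in both mice, and the medians were 0.36 and 0.39. The share of all genes higher by any amount was not counted, and their median was itself 0.12. Btg2, an antiproliferative gene, was 3.58 and 3.42 against 1.51 and 0.914, and Trp53inp1, a p53 cofactor, was 5.25 and 5.25 against 2.62 and 2.17. Mdm2, the ubiquitin ligase of p53, was 8.18 and 8.79 against 6.12 and 6.14, which missed the threshold. Cdkn1a, the p21 cell cycle inhibitor, was 1.00 and 1.20 against 0.442 and 0.366, which missed the threshold in the control mouse. It was 4.83 and 9.31 in InjuredPT-A. Of 10 cytokines and growth factors, 4 were higher (Il34, Cxcl1, Bmp6 and Gdf15) and Fgf1 was lower. Il34 and Cxcl1 are among the markers given for the cluster, so this count is not read further. Bmp6, a BMP ligand, was 5.99 and 7.65 against 2.76 and 3.07. Gdf15, a stress cytokine and p53 target, was 3.39 and 2.07 against 2.03 and 1.05, and 2.00 and 1.45 in InjuredPT-A. Cyr61, a matricellular protein, was 2.55 and 2.15 against 1.04 and 1.23, which just missed the threshold in the hKLF6OE mouse.

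The counts that follow stand beside 2.56% higher and 4.83% lower over all genes, and a single member of a list is given as that gene only. Of 9 autophagy and lysosome genes, Vmp1, Sqstm1 and Ctsb were higher, and Sqstm1, the p62 receptor, was 4.47 and 2.86 against 1.72 and 1.55. Of 17 actin and adhesion genes, Myh9, Cdh1 and Vcl were higher. Of 6 AP-1 and immediate early genes, Klf6 and Jun were higher, and Atf3 was 0.0747 and 0.134. The NRF2 list had 1 of 13 higher, Txnrd1, the lipid droplet list 1 of 6, Plin2, and the efflux transporter list 1 of 7, Abcb1b. Plin2 and Abcb1b are markers given for the cluster, so the counts of their lists are not read further. Of 9 cell death regulators, Bcl2l1 was higher, and of 15 fatty acid oxidation genes Pdk4 was higher and Crot lower. Of 4 MAPK feedback genes, Spred2 was higher, and of 9 genes of the unfolded protein and ATF4 response, Slc3a2 was. Of 7 clock genes, Tef was lower, and of 14 receptors of injury signals, Ghr was lower. None of 7 repair genes, 8 heat shock genes, 39 oxidative phosphorylation genes of the nucleus, 10 genes of the mitochondrial genome or 18 ribosomal protein genes was higher or lower in both mice. Classical tubular injury markers were mostly low in nuclei, with 2 of 22 compared and neither past the threshold, and Lcn2 was at 0 in both mice.

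Levels in PT-S3 without and with AAI were set beside InjuredPT-B to see which genes already differed in PT-S3. Cxcl1 had PT-S3 means of 0.0589 and 0.0920 without AAI, 1.45 and 1.89 with AAI, and values of 3.75 and 5.35 in InjuredPT-B. Abcb1b went through 0.0643 and 0.114, 1.25 and 1.12, and 3.87 and 2.88 in the same order. Mdm2 was 1.03 and 0.885, then 6.12 and 6.14, then 8.18 and 8.79. Of the 106 genes higher in InjuredPT-B than in PT-S3 with AAI, 7 were also higher in PT-S3 with AAI than without in both genotypes. These were Btg2, Bcl2l1, Trp53inp1, Abcb1b, Cxcl1, Gdf15 and Chd9. The p53 list holds 3 of them, and 16 of the 4141 genes compared with PT-S3. None of the 29 genes above the normal range differed in PT-S3 by the threshold in both genotypes, although 23 of them were higher with AAI by any amount in each genotype. A gene that is high in PT-S3 with AAI can less easily stand above the range or the mean of those clusters. The same shares over all genes were not counted, so the counts are a description. Il34 had PT-S3 means of 3.74 and 2.15 without AAI and 2.77 and 2.70 with it. Cubn was 5.27 and 5.28 in PT-S3 without AAI and 9.82 and 7.58 with it, and the InjuredPT-B value was under the latter in both mice and near the former in the control mouse.

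**Figure D3:**
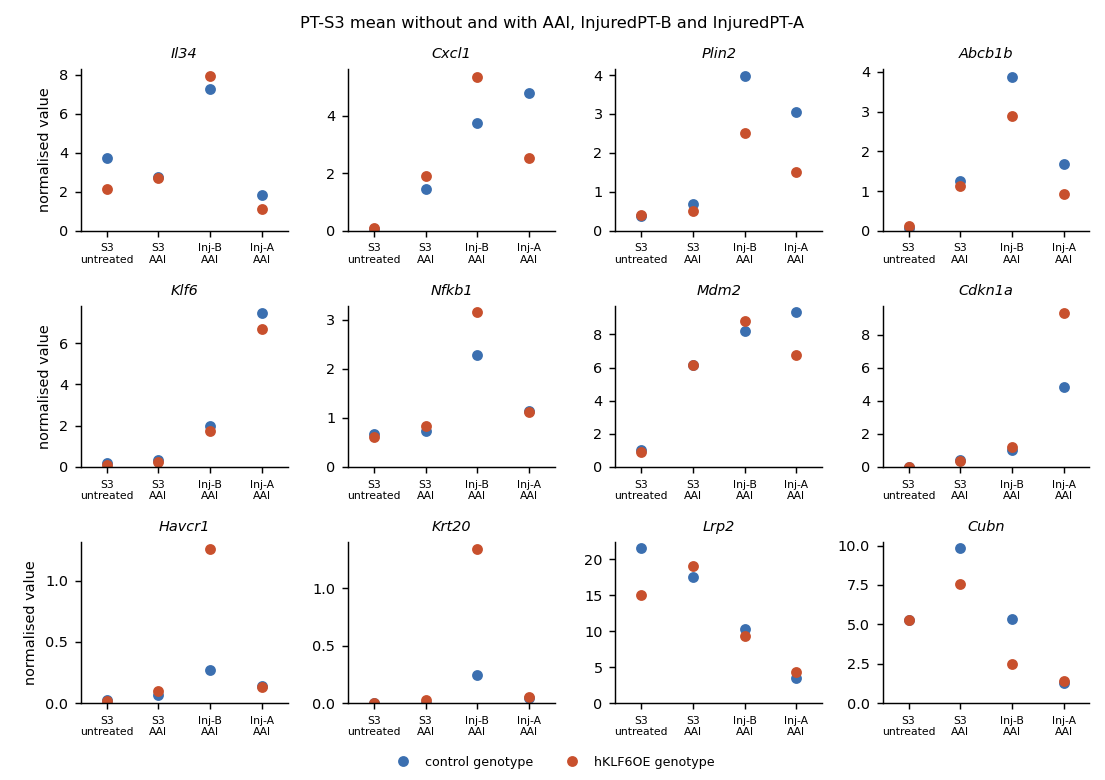
Values of 12 genes (y axes, counts per 10000) in the mean of the PT-S3 clusters without and with AAI and in InjuredPT-B and InjuredPT-A with AAI, 1 point for each mouse. Cxcl1, Abcb1b and Mdm2 are already higher in PT-S3 with AAI, Nfkb1 and Il34 are higher in InjuredPT-B than in all other columns shown, and Klf6 and Cdkn1a are higher in InjuredPT-A than in the rest.

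Differences between the 2 AAI mice in InjuredPT-B were read as hKLF6OE minus control. Of 4744 genes compared, 92 were higher (1.94%) and 112 lower (2.36%) in the hKLF6OE mouse. In the PT-S3 clusters the same comparison gave 27 to 55 higher and 30 to 79 lower genes of 3824 to 4120 compared. In InjuredPT-A it gave 108 and 85 of 5253. The genotype, the mouse and its library cannot be told apart. Of the 92 higher genes, 6 were higher by the threshold in each of the 3 PT-S3 clusters too and 57 in none of them. Of the 112 lower genes, the counts were 5 and 56. The same shares over all genes were not counted, so these counts are not read as particular to InjuredPT-B.

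Among the genes higher in the hKLF6OE mouse were Havcr1, Krt20, Anxa2 and Itgb6 of the injury marker list. Havcr1, kidney injury molecule 1, was 0.270 and 1.26 in InjuredPT-B, and 0.0706 and 0.101 in PT-S3. Krt20, a keratin of injured tubules, was 0.245 and 1.34 in InjuredPT-B and 0.00371 and 0.0243 in PT-S3. Both genes were at 0 in InjuredPT-B of the 2 mice without AAI, and both ranked 1 of 23 clusters in each AAI mouse. Anxa2, a membrane-binding annexin, was 0.0380 and 0.604. Itgb6, the beta subunit of an integrin that activates TGF-beta, was 3.29 and 5.68, but it was 3.36 and 7.12 in PT-S3, and its difference in InjuredPT-B was less than in PT-S3 by 0.25. Only 5 of 22 injury markers reached the minimum value, and Havcr1, Krt20 and Anxa2 did so in the hKLF6OE mouse alone, so they could only be counted as higher and the count of members is not read further.

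Muc13, a membrane mucin, showed the largest difference among the higher genes, from 0.0127 to 1.29, and was 0.00535 and 0.159 in PT-S3 and 0 and 0.259 in InjuredPT-B without AAI. Prom1, prominin, a membrane glycoprotein, was 0.315 and 1.46. Vcl, vinculin, which anchors actin at adhesions, was 2.28 and 4.53, against 1.23 and 1.33 in PT-S3, and Msn, moesin, was 0.716 and 1.74 against 0.455 and 0.643. Cpe, carboxypeptidase E, was 1.14 and 2.53 against 0.382 and 0.331. Steap2, a metalloreductase, was 1.66 and 4.06, and Cfap69 was 0.854 and 2.40. Dtnb, dystrobrevin beta, differed by 0.84 in InjuredPT-B and was 1.81 and 1.93 in PT-S3. None of these genes was past the threshold in the mean of the PT-S3 clusters, but in PT-S3-1 Muc13 and Cfap69 were, both at 0.52, and Prom1 was just under it.

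The genes furthest below in the hKLF6OE mouse included enzymes and transporters. Cyp2e1, a cytochrome P450 of small molecules, was 2.47 and 0.509, and 1.90 and 0.850 in PT-S3. Nat8f3, an acetyltransferase family member, was 2.82 and 0.803, against 2.78 and 2.28 in PT-S3. Slc22a28, an organic anion transporter family member, was 1.69 and 0.325, and Pik3c2g, a lipid kinase, was 3.86 and 1.48. Slc22a6 and Slc22a8, the organic anion transporters OAT1 and OAT3, were 2.55 and 1.24, and 1.86 and 0.678. Gstt2, a glutathione transferase, was 2.25 and 0.788, and was lower in PT-S3 too, at 2.14 and 1.17. Of 27 shared proximal tubule genes, 8 were lower and Pck1 was higher, beside 2.36% and 1.94% of all genes. By any amount 25 were lower, with a median of -0.41 in InjuredPT-B and -0.06 in PT-S3. Over all genes the median in InjuredPT-B was -0.002, and the share lower by any amount was not counted. The 8 were Cubn, Dab2, Slc34a1, Miox, Keg1, G6pc, Acsm2 and Slc13a3. Ppara, the fatty acid sensor, was 6.38 and 3.68, and its peroxisomal target Ehhadh was 3.81 and 1.97. Ehhadh was also lower in PT-S3, at 6.37 and 2.27, by more than in InjuredPT-B.

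Some genes differed in the same way in InjuredPT-B and PT-S3. Kcnj2, an inward rectifier potassium channel, was 0.901 and 0.0238 in InjuredPT-B and 0.619 and 0.0642 in PT-S3. Cyp2a5 was 1.68 and 0.282, and 0.795 and 0.120 in PT-S3, and it is one of a group of near-identical genes whose reads may be split. Gli2, a transcription factor of hedgehog signalling, was 0 and 0.762 in InjuredPT-B with AAI and 0 and 0.759 without AAI, and 0.105 and 0.783 in PT-S3 with AAI, so that the difference was seen without AAI as well. After subtraction of the mean difference in the PT-S3 clusters, 34 genes were higher and 44 lower by the threshold, with Muc13, Krt20, Havcr1, Dtnb, Vcl and Cpe in the lead of the higher ones and Nat8f3, Aadat, Gas2 and Erc2 among the lower. Aadat, kynurenine aminotransferase, was 2.41 and 1.65 in InjuredPT-B and 2.20 and 3.30 in PT-S3.

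**Figure D4:**
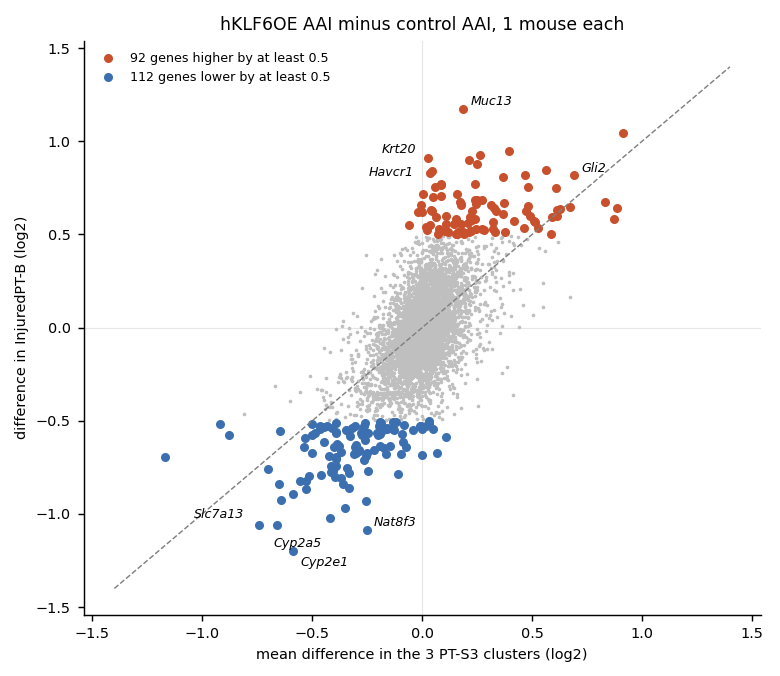
Difference between the hKLF6OE and control AAI mice (log2) in InjuredPT-B (y axis) against the mean of the same difference in the 3 PT-S3 clusters (x axis), 1 point for each of 4744 genes, with equality as the dashed line. Muc13, Krt20 and Havcr1 lie high above the line, with mean differences in PT-S3 of 0.19, 0.03 and 0.04, and Cyp2e1, Nat8f3, Cyp2a5 and Slc7a13 are at the bottom.

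Gene length and RNA class moved with the genotype comparison. Of the genes higher in the hKLF6OE mouse in InjuredPT-B, 70.3% span over 100 kb and 7.69% under 30 kb, while of the lower genes 13.4% span over 100 kb and 63.4% under 30 kb, against 23.1% and 33.7% of all genes compared. In the normal proximal tubule clusters with AAI, 50% to 77.8% of the genes higher in the hKLF6OE mouse spanned over 100 kb. The lower genes had no such common share over 100 kb. It was 13.3% to 23.4% in the PT-S3 clusters but 27.7% and 37.5% in PT-S1-S2-1 and PT-S1-S2-2, against 27.6% and 28.3% of all genes there. Across the normal clusters with AAI, 40.6% to 61.7% of the lower genes spanned under 30 kb, against 27.2% to 29.4% of all genes. Without AAI the shares for the higher genes were low, with 12.5% to 20.6% of the genes higher in the hKLF6OE mouse over 100 kb in the normal clusters. In InjuredPT-B without AAI, where 743 genes were higher and 760 lower on much sparser columns, the share was 18.8%. Mitochondrially encoded genes had a median difference of -0.34 in InjuredPT-B and -0.15 in PT-S3 with AAI, and ribosomal protein genes -0.19 and -0.08. The part of RNA quality in the genotype differences was not tested. Unlike most of the lower genes, Cubn, which spans 215 kb, was lower in the hKLF6OE mouse, and Klf6, of 8.91 kb, differed little.

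**Figure D5:**
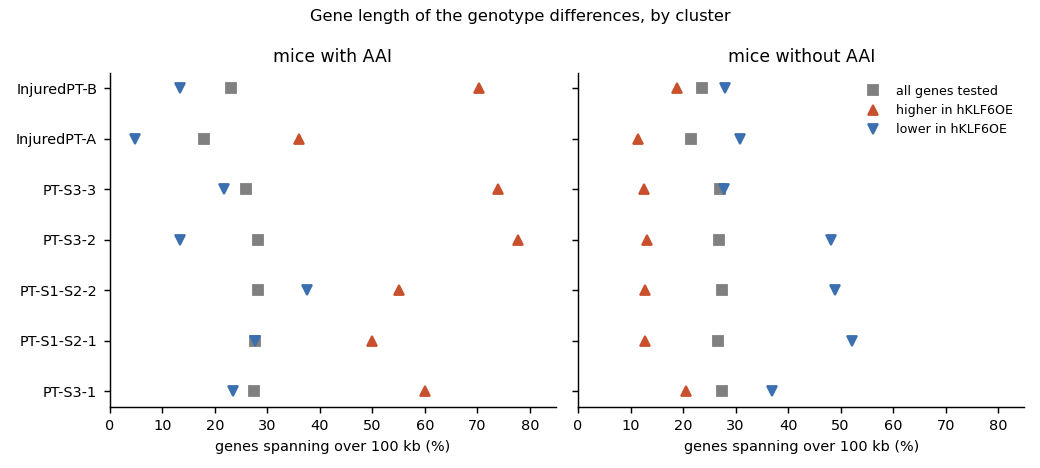
Share of genes that span over 100 kb (x axis, %) among all genes compared, genes higher and genes lower in the hKLF6OE mouse, for each proximal tubule cluster, with AAI (left) and without (right). In InjuredPT-B with AAI the shares are 23.1%, 70.3% and 13.4%, and without AAI they are 23.6%, 18.8% and 27.9%.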

How the data were processed

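Nuclei of kidney cortex were sequenced on the 10x platform. Per the labels, alignment was to mm10, and the authors used Cell Ranger with intronic reads included and then Seurat for filtering by genes and mitochondrial share and for clustering. The deposited signal values were made by the authors as means of normalised expression over the nuclei of 1 cluster in 1 mouse, on a linear scale that sums to 10000 in each of 92 columns. How the averages were computed is not given in the sources used here. For these nuclei no doublet step is described, and averages do not allow one. Of 19632 gene rows, 23 with date-like names were left out.

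Differences were taken with a pseudocount of 1, a minimum value of 0.5 and a log2 threshold of 0.5, without any test, since each condition has 1 mouse and the clusters were made from the same nuclei. PT-S3 is the unweighted mean of clusters 0, 3 and 4. The genes named are the 4 markers, the 12 largest rises and falls against PT-S3, the 10 furthest outside the normal range and the 10 largest genotype differences on each side, the 6 largest after subtraction of PT-S3, up to 4 members on each side of 35 gene lists, and list members past the threshold between the mice. Members of lists that missed the threshold, and genes such as Tpm3, Raph1, Slc5a12 and Eif2ak3, were named after their values were seen. The cluster and the lists were chosen with earlier results of these data known. Gene spans came from GENCODE on GRCm38. The scripts recovered known changes when tested on simulated data. Software was scipy 1.17.1, pandas 2.3.3 and numpy 2.4.6 under Python 3.11.15, with figures from matplotlib 3.10.9. Some items are not reported here. The alternatives tried were another pseudocount, minimum, threshold, centring and reference, and each mouse alone.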

Additional observations from a re-analysis of the deposited data

How the results depend on the processing

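Depth limits the InjuredPT-B columns: the minimum value of 0.5 was 174 and 105 times the smallest value above 0 in the AAI mice but 11.8 and 8.75 times in the mice without AAI, so values of the latter are coarse. Counts moved as follows, in the order higher and lower than PT-S3, above and below the normal range, and higher and lower in the hKLF6OE mouse. A pseudocount of 0.1 gave 621 and 361, 152 and 42, and 478 and 588. A threshold of 0.2 gave 1031 and 510, 308 and 87, and 837 and 878, and a threshold of 1 gave 6 and 46, 0 and 0, and 2 and 5. A minimum value of 2 gave 69 higher than PT-S3, 17 above the range, and 50 and 74 between the mice. All genes had median differences of 0.12 from PT-S3 in both mice, and centring on the median gave 45 and 310 against PT-S3, and 11 and 28 outside the range. The share of calls that were higher than PT-S3 was 34.6%, and 12.7% after centring, 63.2% with the pseudocount of 0.1 and 66.9% with the threshold of 0.2. Against PT-S3-2 alone the counts were 337 and 307, and against PT-S3 without AAI 277 were higher. The control mouse alone gave 179 higher than PT-S3, and 45 and 20 outside the range, and the hKLF6OE mouse alone 267 and 309, and 96 and 49. Subtraction of the PT-S3 difference between the mice left 34 and 44, and the mice without AAI, an alternative added after seeing the data, gave 743 and 760. With no minimum value every count stayed as it was. PT-S3-1 stayed the nearest cluster under each alternative except the uninjured columns of the hKLF6OE mouse, where its r of 0.778 was behind that of PT-S1-S2-2 at 0.789. With PT-S3-1 as the reference, Cyp7b1 (0.41), Crot (0.35) and Gramd1b (0.16) were higher in InjuredPT-B, and after subtraction of PT-S3 Itgb6 was -0.25, Pck1 -0.015 and Ehhadh 0.48. Alternatives for gene length, lists and the order from PT-S3 to InjuredPT-B were chosen after seeing the data. At a threshold of 1, the 2 genes higher and 5 lower in the hKLF6OE mouse had a share of 0% over 100 kb. At a minimum value of 2, 1 NF-kB gene was higher, and with PT-S3-1 as the reference 0 cytokine genes were lower. With a pseudocount of 0.1, 4 of the genes above the range were higher in PT-S3 with AAI and 3 of those below it were higher, and with PT-S3-1 alone 2 of the latter were lower. The cause of these shifts was not tested. No replicate could be left out, with 1 mouse for each condition. Differences from PT-S3 were already taken within each mouse, as 2 values without a test. No paired analysis was possible because, between conditions, each has 1 mouse.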
